A study of Homo sapiens with 72 samples.

Results

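A set of 9 named noncoding genes, of the 60371 genes listed for each library, was followed across all compounds and doses of a bulk RNA-seq experiment in U2OS cells, a human osteosarcoma line. They were NEAT1, MALAT1, TUG1, NORAD, KCNQ1OT1, OIP5-AS1, MIR22HG, DANCR and CYTOR, chosen by name and found through their Ensembl identifiers. The questions were how much of each RNA remained when transcription was blocked, and how each responded when translation was blocked. All 9 passed the filter on low counts in every comparison.

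The experiment held 72 wells: 18 wells with DMSO, and 3 wells for each of 6 compounds at 100 nM, 1000 nM and 10000 nM, all collected after 12 h. The compounds were triptolide, homoharringtonine, pyrazolanthrone, nilotinib, miglitol and MK-2206. Triptolide binds the XPB subunit of the transcription factor TFIIH and stops RNA polymerase II, and homoharringtonine binds the ribosome and stops protein synthesis. Libraries were prepared from poly(A)-selected RNA with a stranded kit. All wells are of 1 cell line, nothing in the labels says that they came from separate cultures, and p-values measure the spread between wells, which may be technical.

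Long noncoding RNAs are transcripts of RNA polymerase II that are not known to encode a conserved protein, and where they reside shapes what they can do. Some stay in the nucleus, where they scaffold nuclear bodies or act on chromatin, and others are exported and bind proteins or small RNAs in the cytoplasm. Once transcription stops, the level of a transcript depends on how fast it decays, and cytoplasmic transcripts that ribosomes scan can be degraded by nonsense-mediated decay, which needs translation.

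Among the nuclear members, NEAT1 is the scaffold of paraspeckles, MALAT1 gathers in nuclear speckles, and KCNQ1OT1 is an imprinted antisense transcript that acts on its own chromosomal domain. TUG1 is found in both compartments. NORAD is a cytoplasmic RNA that binds the protein PUM2, OIP5-AS1 (also named cyrano) carries a site for the microRNA miR-7, and MIR22HG is the host transcript of the microRNA miR-22. DANCR is a spliced RNA whose introns hold a small nucleolar RNA, and CYTOR is a spliced RNA that has a nearly identical copy, MIR4435-2HG, on the same chromosome.

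In GRCh38 with the GENCODE release 44 annotation, NEAT1 (ENSG00000245532) lies at chr11:65422774-65445540 and MALAT1 (ENSG00000251562) at chr11:65497640-65508073, both on the plus strand. KCNQ1OT1 (ENSG00000269821) lies at chr11:2597308-2700003 on the minus strand, inside KCNQ1, which runs on the other strand and stood at a mean of 0.246 TPM in DMSO wells. TUG1 (ENSG00000253352) lies at chr22:30969245-30979395 on the plus strand and is annotated as protein coding in this release, while the other 8 members are annotated as lncRNA. NORAD (ENSG00000260032) lies at chr20:36045618-36051018 on the minus strand as a single transcript of 5401 bases. OIP5-AS1 (ENSG00000247556) lies at chr15:41283958-41322392 on the plus strand and overlaps OIP5 on the other strand and NUSAP1, which stood at 209 TPM, on its own strand. MIR22HG (ENSG00000186594) lies at chr17:1711447-1717174 on the minus strand and overlaps WDR81 on the other strand. DANCR (ENSG00000226950) lies at chr4:52712325-52723623 on the plus strand and overlaps ERVMER34-1 on the other strand. CYTOR (ENSG00000222041) lies at chr2:87454781-87636740 on the plus strand. Whether strand was used in counting is not given in the sources used here, so reads of overlapping genes may be shared, above all for OIP5-AS1.

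The 3′ ends of NEAT1 and MALAT1 are shown first, because these libraries were selected for poly(A). Both RNAs are known to be cut by RNase P instead of being polyadenylated, and the cut end is guarded by U-rich motifs that fold onto a genome-encoded A-rich tract. Capitals mark 2 U-rich motifs and the A-rich tract. The NEAT1 stretch is chr11:65445431-65445540 and ends at the annotated gene end, and the MALAT1 stretch is chr11:65506007-65506116 and ends 1957 bases before the annotated gene end, both on the plus strand of GRCh38. The A-rich tract is 11 bases long in NEAT1 and 19 bases long in MALAT1.
NEAT1 3′ end: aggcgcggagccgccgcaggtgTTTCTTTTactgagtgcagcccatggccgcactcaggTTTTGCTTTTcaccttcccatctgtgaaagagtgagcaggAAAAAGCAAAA
MALAT1 3′ end: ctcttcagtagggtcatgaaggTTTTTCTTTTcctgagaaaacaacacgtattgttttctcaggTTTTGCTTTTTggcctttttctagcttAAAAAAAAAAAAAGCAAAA
NEAT1 also has a short isoform, which is polyadenylated. Its signal AATAAA is shown in capitals in the stretch chr11:65426443-65426522 on the plus strand.
NEAT1 short isoform signal: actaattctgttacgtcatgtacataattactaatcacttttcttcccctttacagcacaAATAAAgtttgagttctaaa

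NORAD is set apart from the other members by its sites for PUM2. The motif TGTANATA, searched on the transcript strand, occurred 15 times in its 5401 bases, or 2.78 times per kb, which put it at percentile 99.97 of 20136 genes by motif density. In the longest listed transcript of each other member the motif occurred 9 times in KCNQ1OT1, 6 times in NEAT1, 2 times in TUG1, 1 time in OIP5-AS1, and 0 times in MALAT1, MIR22HG, DANCR and CYTOR. The pentamer ATTTA was counted in the same transcripts, and for that motif no member lay above percentile 84.7. From the 15 NORAD sites, 3 are shown with the motif in capitals, to give the forms that differ at the free base N.
NORAD site 1: ggaaggcctgTGTATATAatatgaaaaa
NORAD site 3: aatcacatttTGTAAATAcctttttgtt
NORAD site 5: gtgtatatagTGTACATAaaggacagac

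CYTOR cannot be separated cleanly from MIR4435-2HG, and the sequences show how near the copies are. Aligned over 970 columns, the CYTOR transcript of 1394 bases and the MIR4435-2HG transcript of 969 bases were identical at 967, with 2 mismatches and 1 gap. Of 7937 windows of 50 bases across the 13 CYTOR transcripts, 42.7% were found unchanged in the copy. A stretch of 90 bases from each is shown around 1 of the mismatches, which is in capitals.
CYTOR: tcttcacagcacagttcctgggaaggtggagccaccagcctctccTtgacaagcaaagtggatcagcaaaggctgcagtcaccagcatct
MIR4435-2HG: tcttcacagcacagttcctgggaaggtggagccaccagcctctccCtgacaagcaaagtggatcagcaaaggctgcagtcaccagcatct

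MIR22HG carries the hairpin of miR-22, whose mature forms are not measured in these libraries. Both arms are shown from RefSeq on GRCh38.p14, with the seed, bases 2 to 8, in capitals. The 3p arm lies at chr17:1713914-1713935 and the 5p arm at chr17:1713952-1713973, both on the minus strand and inside the host gene.
hsa-miR-22-3p: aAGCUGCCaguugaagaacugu
hsa-miR-22-5p: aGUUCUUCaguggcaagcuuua

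Depth ranged from 70767 to 68296309 expected counts per library. In 3 libraries it was under 10000000: DMSO replicate 10 with 460014 counts, triptolide 100 nM replicate 2 with 70767, and triptolide 1000 nM replicate 1 with 9628355. In the shallowest of these, 3 members were at 0 and the largest member count was 9, while a count of 3 already corresponds to 36.1 CPM, so its values for most members lie at or under the limit that a count of 0 allows (counting error only). Calls of members against DMSO that change without these libraries are given both ways, as are the DMSO levels in TPM. The label U2OS was checked against markers. VIM at a mean of 1842 TPM, SPARC at 2144, COL1A1 at 456 and FN1 at 381 were high in DMSO wells. RUNX2 was low at 3.91 and COL1A2 was at 0.0889. PTPRC, CD3E, EPCAM, CDH1, PECAM1, ALB and GFAP had means of at most 2.35 TPM.

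Per length and molecule (TPM), the 9 members covered a wide range of levels in the 18 DMSO wells. DANCR stood at 273 ± 24.9 TPM (SD, n = 18) and CYTOR at 265 ± 33.2. Next came NORAD at 66.6 ± 9.66, OIP5-AS1 at 53.1 ± 17.3, TUG1 at 45.2 ± 16.8, NEAT1 at 35.3 ± 11.6 and MALAT1 at 24.0 ± 11.7. MIR22HG stood at 6.74 ± 2.08 and KCNQ1OT1 at 0.03 ± 0.0137. Without the shallow DMSO library (n = 17), DANCR stood at 274 ± 25.6, CYTOR at 259 ± 22.3 and NORAD at 65.5 ± 8.66. OIP5-AS1 was then at 49.3 ± 6.98, TUG1 at 46.1 ± 16.9, NEAT1 at 35.3 ± 12.0 and MALAT1 at 21.9 ± 7.63. MIR22HG was at 6.35 ± 1.30 and KCNQ1OT1 at 0.0318 ± 0.0119.

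Over all 18 wells, neighbours in this order did not overlap at only 2 steps, between CYTOR and NORAD and between MIR22HG and KCNQ1OT1. DANCR was above CYTOR in 9 of 18 wells, OIP5-AS1 above TUG1 in 11 and TUG1 above NEAT1 in 11. NORAD was above OIP5-AS1 in 16 wells and NEAT1 above MALAT1 in 16, and MALAT1 was above MIR22HG in all 18 although the ranges of the groups overlapped. That overlap came through the shallow DMSO library alone. It held the highest MIR22HG value, 13.35 TPM, against a lowest MALAT1 value of 11.72. How much of NEAT1 and MALAT1 lacks a poly(A) tail and so escapes capture was not tested.

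All further levels are CPM, a gene's counts relative to the TMM-scaled size of the library, which compare 1 gene between libraries and not 2 genes with each other. In DMSO wells the lowest, median and highest CPM were 34.2, 54.0 and 93.5 for NEAT1, 27.5, 46.2 and 97.3 for MALAT1, and 47.8, 85.2 and 215 for TUG1. They were 194, 231 and 276 for NORAD, 57.2, 65.1 and 119 for OIP5-AS1, and 98.8, 132 and 157 for DANCR. They were 53.9, 77.2 and 94.6 for CYTOR, 3.50, 5.10 and 8.76 for MIR22HG, and 0, 1.91 and 3.08 for KCNQ1OT1. Relative to its mean, TUG1 had the widest spread of the 9 in CPM, at 98.7 ± 45.4 (SD, n = 18), and NORAD the narrowest, at 234 ± 21.1. In TPM the order differed. There the SD was widest for MALAT1, at 48.7% of the mean (TUG1 37.2%), and narrowest for DANCR, at 9.11% (NORAD 14.5%).

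**Figure D1:**
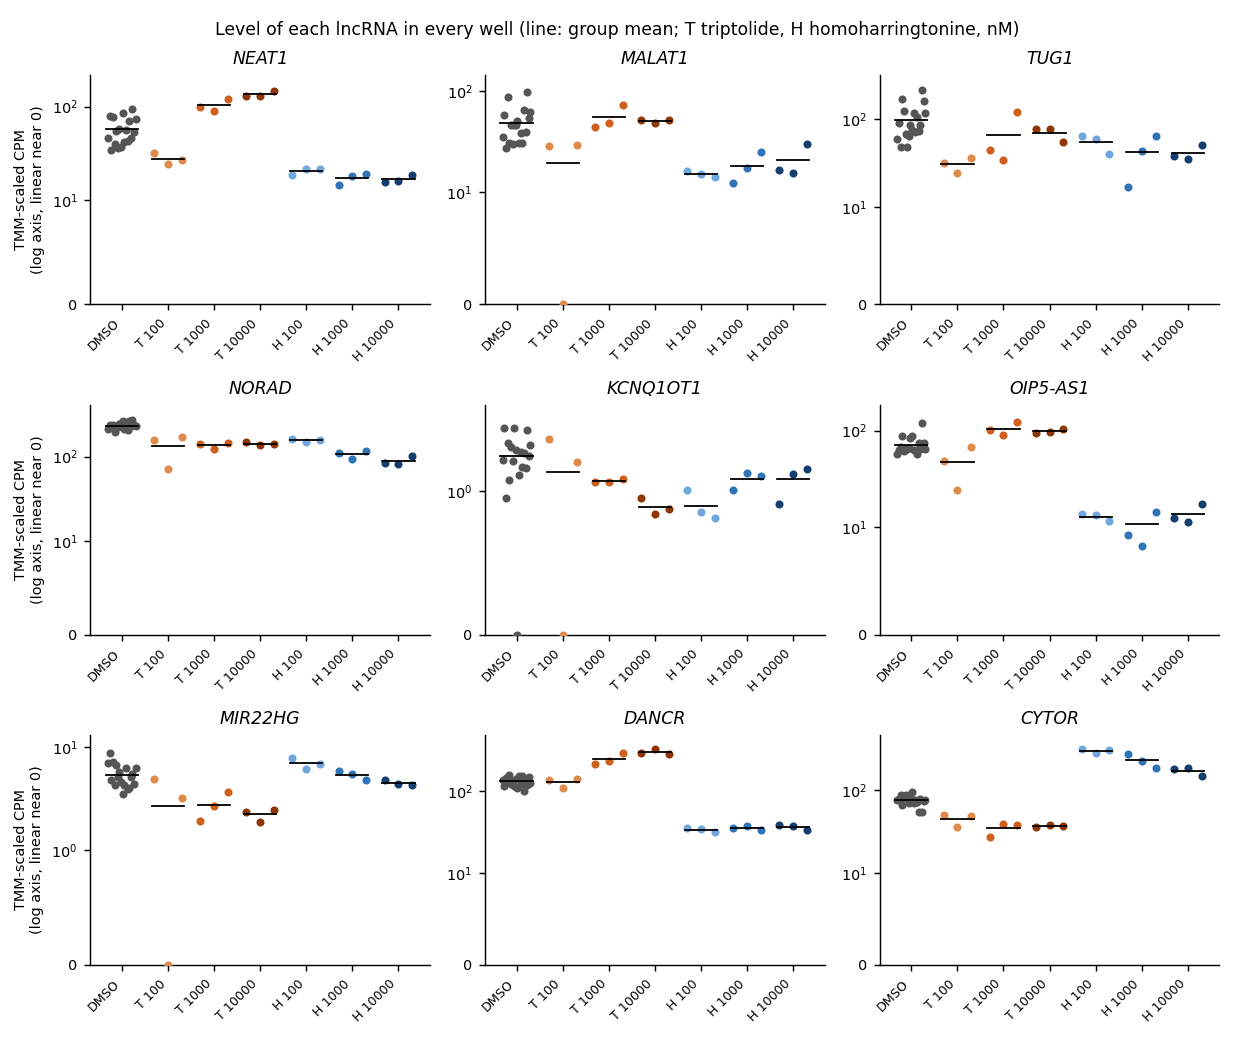
Level of each of the 9 lncRNAs in every DMSO, triptolide (T) and homoharringtonine (H) well, 1 panel per gene, as TMM-scaled CPM on a log axis that is linear near 0, with doses in nM and a line at each group mean. Under homoharringtonine the points of DANCR and OIP5-AS1 lie below all DMSO wells and those of CYTOR above them, and under 10000 nM triptolide those of NEAT1 and DANCR lie above all DMSO wells on this scale but fall below DMSO when libraries are scaled to mitochondrial mRNAs.

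Transcription block by triptolide left the 9 RNAs at unequal levels. Relative to the other mRNAs of the same libraries, NEAT1 and DANCR were higher at 10000 nM than in DMSO and CYTOR, MIR22HG and KCNQ1OT1 lower, while relative to the mitochondrially encoded mRNAs all 9 were lower. So were nearly all genes on that second scale, where 18041 of 18536 were lower and 8 higher past the thresholds given next. On the first scale 5 of 9 members passed an adjusted p of 0.05 with a change of over 2-fold (log2 fold change above 1 or below -1), 2 higher and 3 lower, beside 46.4% of all genes tested (16.2% higher and 30.2% lower). With library sizes alone 5 members passed as well, but 0 higher and 5 lower, since NEAT1 (0.68) and DANCR (0.60) came to lie under 2-fold and TUG1 (-1.08) and NORAD (-1.30) past it, and the split of all genes went from 3005 higher and 5602 lower to 785 and 7599. The median log2 fold change of the members was -0.55, that of all 18536 genes tested -0.17 and that of all 2377 lncRNAs tested -0.22. By the adjusted p alone, whatever the size, 71.8% of all genes passed at 10000 nM, 67.4% at 1000 nM and 56.8% at 100 nM, so a change that passes on these terms is common here. In bulk samples, fewer cells and less RNA per cell cannot be told apart. Values below are on the TMM scale unless another is named.

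NEAT1 stood at 130, 128 and 147 CPM in the wells with 10000 nM triptolide. All 3 values were above every DMSO well, and the log2 fold change was 1.22 ± 0.22 (SE, edgeR adjusted p = 2.3e-05), while under mitochondrial scaling it was -1.50. At 1000 nM its wells stood at 99.1, 88.7 and 121 CPM, with a log2 fold change of 0.87 (edgeR adjusted p = 0.0018) on the first scale and -1.55 under mitochondrial scaling. At 100 nM they stood at 32.3, 24.1 and 27.0 CPM, all below every DMSO well, with a log2 fold change of -0.92 (edgeR adjusted p = 0.014), or -0.88 without the shallow libraries, which include the well at 24.1. NEAT1 was therefore on opposite sides of DMSO at the lowest and the upper doses on the first scale and below DMSO at all 3 doses under mitochondrial scaling.

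MALAT1, the other RNA with a genome-encoded A-rich end, stood at 51.3, 48.8 and 51.6 CPM at 10000 nM and at 44.3, 48.0 and 72.6 at 1000 nM, within the range of the DMSO wells. Its log2 fold changes were 0.02 (edgeR adjusted p = 0.96) and 0.18 (edgeR adjusted p = 0.62). The 95% interval at 10000 nM ran from -0.55 to 0.59, which leaves room for a moderate change either way, and under mitochondrial scaling the change there was -2.68. At 100 nM the wells stood at 28.8, 0 and 29.4 CPM, the 0 being the shallowest library, and the log2 fold change was -0.78 (edgeR adjusted p = 0.077).

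TUG1 was the single member past both thresholds at 100 nM on the TMM scale, beside 32.4% of all genes, while with library sizes alone NEAT1 (-1.27) and MALAT1 (-1.13) passed too. Its wells stood at 32.0, 24.1 and 35.9 CPM, all below every DMSO well, with a log2 fold change of -1.55 ± 0.43 (edgeR adjusted p = 0.0036), or -1.54 without the shallow libraries. The change was -0.90 both with the GC slope of the library as a covariate and with a replicate block, which kept only DMSO replicates 1 to 3. Both had adjusted p-values under 0.05 (edgeR 3.6e-07 and 4.8e-09) but were under 2-fold. At 1000 nM the wells spread from 34.2 to 120 CPM and at 10000 nM from 54.8 to 77.9, and neither dose passed on the TMM scale (log2 fold changes -0.58 and -0.55, edgeR adjusted p = 0.19 and 0.16). Both passed with library sizes alone (-1.06 and -1.08, edgeR adjusted p = 0.022 and 0.010) and under mitochondrial scaling (-3.04 and -3.21).

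KCNQ1OT1 is counted from few reads. At 10000 nM triptolide its wells stood at 0.949, 0.835 and 0.871 CPM, inside the DMSO range, whose lowest value is the 0 of the shallow DMSO well. The log2 fold change was -1.19 ± 0.31 (edgeR adjusted p = 0.0015). At 1000 nM it was -0.73 (edgeR adjusted p = 0.054) and at 100 nM 0.12 (edgeR adjusted p = 0.79).

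NORAD, the PUM2-binding RNA of the cytoplasm, stood at 148, 137 and 143 CPM at 10000 nM triptolide and at 141, 125 and 146 at 1000 nM. These 6 wells were below every DMSO well, and the log2 fold changes were -0.75 ± 0.09 (edgeR adjusted p = 5.4e-08) and -0.77 (edgeR adjusted p = 7.6e-08). At 100 nM the wells stood at 158, 72.3 and 172 CPM with a log2 fold change of -0.59 (edgeR adjusted p = 0.00026), and without the shallow libraries it was -0.47. On the TMM scale NORAD thus fell by less than 2-fold at each dose. With library sizes alone the changes at the 3 rising doses were -0.90, -1.23 and -1.30, the last 2 past 2-fold, and under mitochondrial scaling they were -2.26, -3.23 and -3.53.

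OIP5-AS1 stood at 93.9, 97.6 and 105 CPM at 10000 nM and at 102, 89.1 and 124 at 1000 nM. Its log2 fold changes were 0.43 (edgeR adjusted p = 0.0099) and 0.56 (edgeR adjusted p = 0.0020), but -0.11 at 10000 nM when library sizes alone were used and -2.32 and -1.89 under mitochondrial scaling. At 100 nM the wells spread from 24.1 to 68.4 CPM (log2 fold change -0.32, edgeR adjusted p = 0.16).

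DANCR, the spliced host of a small nucleolar RNA, was near its DMSO level at the lowest dose. Its wells stood at 137, 108 and 139 CPM at 100 nM, at 216, 232 and 293 at 1000 nM and at 294, 321 and 279 at 10000 nM. The upper doses lay above every DMSO well, with log2 fold changes of 0.90 (edgeR adjusted p = 3.9e-08) and 1.14 ± 0.10 (edgeR adjusted p = 1.4e-10), whereas they were -1.57 and -1.65 under mitochondrial scaling.

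CYTOR and MIR22HG were lower on every scale at the upper doses. CYTOR stood at 36.3, 38.1 and 37.4 CPM at 10000 nM and at 27.4, 38.8 and 38.2 at 1000 nM, all below every DMSO well. Its log2 fold changes were -1.06 ± 0.13 (edgeR adjusted p = 1.3e-07) and -1.12 (edgeR adjusted p = 3.1e-07), the latter being the single member call at 1000 nM on the TMM scale beside 44.2% of all genes. With library sizes alone 5 members passed there, CYTOR (-1.58), MIR22HG (-1.41), NORAD (-1.23), KCNQ1OT1 (-1.19) and TUG1 (-1.06). Without the shallow libraries the change at 1000 nM was -0.98 and no longer over 2-fold, and with DESeq2 the changes were -0.89 and -0.94, both under 2-fold with adjusted p-values under 0.05.

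MIR22HG, the host of miR-22, stood at 2.33, 1.89 and 2.45 CPM at 10000 nM, below every DMSO well, with a log2 fold change of -1.35 ± 0.23 (edgeR adjusted p = 9.6e-06). At 1000 nM the wells stood at 1.93, 2.68 and 3.71 CPM and the change was -0.94 (edgeR adjusted p = 0.0014). Without replicate 3, the deepest well of that group, it was -1.24. At 100 nM the change was -0.41 (edgeR adjusted p = 0.18).

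The scale on which the triptolide libraries are compared decides the direction for part of the members. The 13 mitochondrially encoded mRNAs made up 0.138% to 0.367% of the counts in DMSO wells, 0.519% to 1.15% in triptolide wells and 0.156% to 0.285% in homoharringtonine wells. At 10000 nM triptolide, scaling to them moved the median gene by -2.76 on the log2 scale, and scaling to library sizes alone moved it by -0.53. Whether the mitochondrial mRNAs themselves were stable over the 12 h was not tested.

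Relative to the mitochondrial mRNAs, NEAT1 stood at 35.4% of DMSO at 10000 nM triptolide and DANCR at 31.9%. OIP5-AS1 stood at 20.05%, MALAT1 at 15.7%, TUG1 at 10.8% and NORAD at 8.68%. CYTOR stood at 6.84%, KCNQ1OT1 at 6.62% and MIR22HG at 5.72%. The order of the members was the same as on the first scale, since a change of scale shifts all genes of a library together. Among the log2 fold changes of all genes on the first scale, NEAT1 lay at percentile 89.5 and DANCR at 87.3, OIP5-AS1 at 66.7 and MALAT1 at 54.8. TUG1 lay at percentile 41.0, NORAD at 36.3, CYTOR at 30.4, KCNQ1OT1 at 28.0 and MIR22HG at 25.3. At 10000 nM the nuclear members therefore lay at both ends of this order, NEAT1 at the top and KCNQ1OT1 near the bottom. The spliced RNAs DANCR and CYTOR were also far apart. Where the RNAs resided was not measured in these cells. The order did not hold at every dose. At 100 nM triptolide KCNQ1OT1 was the highest of the 9 on the first scale (0.12 ± 0.35, SE) and under mitochondrial scaling (-1.53 ± 0.41). DANCR was close to it, at 0.05 and -1.57. KCNQ1OT1 has few reads, and its first value ran from -0.24 to 0.36 when a replicate was left out. NEAT1 was among the lowest at that dose, at -0.92 and -2.52 on the 2 scales.

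**Figure D2:**
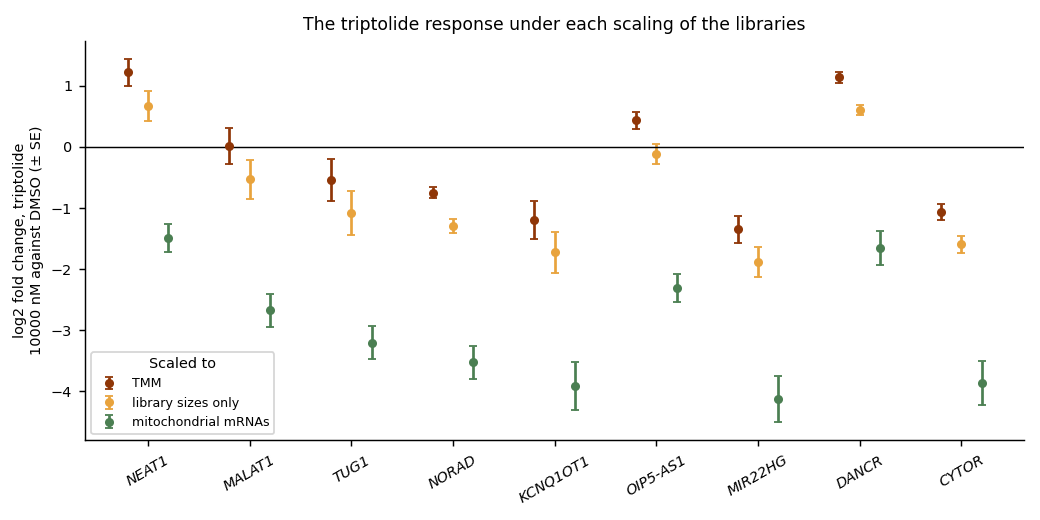
log2 fold change of each lncRNA at 10000 nM triptolide against DMSO, ± SE, with libraries scaled by TMM, by library size alone and to the 13 mitochondrially encoded mRNAs. NEAT1 is at 1.22, 0.68 and -1.50 on the 3 scales and DANCR at 1.14, 0.60 and -1.65, whereas MIR22HG is below 0 on all 3, at -1.35, -1.89 and -4.13.

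Translation block by homoharringtonine lowered most of the members and raised CYTOR. At 10000 nM, 7 of 9 members passed both thresholds, CYTOR higher and NEAT1, MALAT1, TUG1, NORAD, OIP5-AS1 and DANCR lower, beside 47% of all genes tested (23.6% higher and 23.4% lower). At 1000 nM it was 7 members beside 42.4% of all genes, and at 100 nM 6 members beside 34.9%. By the adjusted p alone 74%, 68.4% and 63.4% of all genes passed at the same doses, from the highest to the lowest. The median log2 fold change of the members at 10000 nM was -1.30, that of all genes -0.05 and that of all 2490 lncRNAs tested -0.92, of which 377 were higher and 1123 lower past both thresholds. The fall was therefore common among lncRNAs. With library sizes alone the count at 100 nM was 7, with TUG1 (-1.07) as the addition, and under mitochondrial scaling the count at 10000 nM was 6, without CYTOR (0.86). None of the directions against DMSO given here for homoharringtonine changed under scaling to library sizes or to mitochondrial mRNAs, which moved the median of all genes by at most 0.27 in size.

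OIP5-AS1 fell the furthest of the 9 at every dose. Its wells stood at 13.6, 13.4 and 11.6 CPM at 100 nM, at 9.29, 8.26 and 14.5 at 1000 nM and at 12.6, 11.4 and 17.4 at 10000 nM, against a DMSO minimum of 57.2. It was 5.48-, 6.68- and 5.25-fold lower at the 3 doses (log2 fold changes -2.45, -2.74 and -2.39, edgeR adjusted p = 6.8e-11, 7.6e-11 and 1.3e-10).

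DANCR stood at nearly the same low level at all 3 doses, below every DMSO well. The wells stood at 35.7, 34.6 and 31.8 CPM at 100 nM, at 35.5, 37.9 and 34.0 at 1000 nM and at 38.2, 38.0 and 33.9 at 10000 nM. It was 3.82-, 3.67- and 3.64-fold lower (log2 fold changes -1.93, -1.87 and -1.87, edgeR adjusted p = 3.4e-13, 7.4e-13 and 6.0e-13).

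NEAT1 stood at 18.5, 21.7 and 21.6 CPM at 100 nM homoharringtonine, at 14.4, 18.2 and 18.97 at 1000 nM and at 15.8, 16.1 and 18.4 at 10000 nM. All 9 wells were below every DMSO well. It was 2.71-, 3.28- and 3.43-fold lower, with log2 fold changes of -1.44, -1.72 and -1.78 ± 0.29 (edgeR adjusted p = 9.7e-05, 1.4e-05 and 7.1e-06).

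MALAT1 stood at 16.2, 15.04 and 14.1 CPM at 100 nM, at 12.4, 17.4 and 25.1 at 1000 nM and at 16.7, 15.6 and 29.6 at 10000 nM. Of these 9 wells, 8 were below every DMSO well. The log2 fold changes were -1.68, -1.42 and -1.27 (edgeR adjusted p = 0.00017, 0.0010 and 0.0022).

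TUG1 stood at 64.2, 59.3 and 40.3 CPM at 100 nM, at 16.9, 43.3 and 65.0 at 1000 nM and at 38.0, 35.3 and 50.2 at 10000 nM, which overlapped the DMSO wells at each dose. The log2 fold changes were -0.85, -1.25 and -1.30 ± 0.37 (edgeR adjusted p = 0.040, 0.0086 and 0.0029). With the GC slope as a covariate they were -1.40, -2.18 and -2.69. With a replicate block they were -0.31, -0.88 and -0.74 (edgeR adjusted p = 0.10, 0.068 and 0.029). That block kept only DMSO replicates 1 to 3, whose GC slopes were 0.304, 0.021 and 0.338. The size for TUG1 thus depended on the fit and on the control wells used. Without replicate 1, the lowest well, the change at 1000 nM was -0.89 (edgeR adjusted p = 0.077).

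NORAD fell in steps with dose. Its wells stood at 161, 151 and 157 CPM at 100 nM, at 110, 94.2 and 116 at 1000 nM and at 83.3, 82.6 and 102 at 10000 nM, all below every DMSO well and with no overlap between 100 nM and the upper doses. The log2 fold changes were -0.57, -1.13 and -1.42 ± 0.11 (edgeR adjusted p = 1.8e-05, 1.3e-09 and 1.9e-11).

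KCNQ1OT1 stood at 0.813 to 1.01 CPM at 100 nM, at 1.01 to 1.37 at 1000 nM and at 0.906 to 1.47 at 10000 nM. The log2 fold changes were -1.13, -0.68 and -0.70 (edgeR adjusted p = 0.0031, 0.047 and 0.039), past 2-fold at 100 nM alone. MIR22HG stood at 7.90, 6.16 and 6.92 CPM at 100 nM, at 5.83, 5.45 and 4.80 at 1000 nM and at 4.79, 4.44 and 4.31 at 10000 nM, all within the DMSO range. Its log2 fold changes were 0.36, -0.04 and -0.32 (edgeR adjusted p = 0.12, 0.86 and 0.16), with an interval of -0.71 to 0.08 at 10000 nM, and it was the single member that passed at no dose.

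CYTOR was the single member that rose. Its wells stood at 312, 283 and 304 CPM at 100 nM, at 278, 226 and 187 at 1000 nM and at 180, 188 and 149 at 10000 nM, all above the highest DMSO well at 94.6. It was 4.01-, 3.05- and 2.24-fold higher (log2 fold changes 2.00, 1.61 and 1.16 ± 0.12, edgeR adjusted p = 3.4e-14, 2.0e-11 and 3.7e-09). At 10000 nM the change was 0.86 under mitochondrial scaling and 0.998 with a replicate block, both under 2-fold with adjusted p-values under 0.05.

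How the reads of CYTOR and MIR4435-2HG were divided bears on these values. MIR4435-2HG moved the same way under homoharringtonine, with log2 fold changes of 1.20, 1.0035 and 0.84. The sum of both genes was 166 ± 17.9 CPM in DMSO wells (SD, n = 18, 125 to 197) and 506 ± 28.1, 413 ± 68.0 and 338 ± 36.2 CPM at the 3 doses of homoharringtonine (n = 3 each). The rise was therefore also present in the sum, which does not depend on the division. CYTOR held 45.5% of the sum in DMSO, 59.2%, 55.6% and 50.8% under homoharringtonine at rising doses and 42.2%, 34.6% and 31.9% under triptolide. Under triptolide the sum was 106, 100 and 117 CPM, and MIR4435-2HG changed by -0.43, -0.48 and -0.24, less than CYTOR.

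The promoter of CYTOR is shown because CYTOR alone among the members rose under translation block. It is the RefSeq stretch of 300 bases at chr2:87455177-87455476 on the plus strand of GRCh38.p14, from 250 bases before to 50 after a start. Capitals mark 2 copies of TGAGTCA, the AP-1 motif, which was searched on both strands and occurs in 4.95% of 35116 promoters of this length. Of the 9 members, 7 have a promoter in the table, and the 6 others held no match, which says only that these letters are not in those windows. In all 5 motifs were searched in the same way. TATAAA (11.53% of promoters) was found in 1 window of MALAT1, CACGTG (7.26%) in OIP5-AS1, NORAD and TUG1, and CCAAT (34.61%) in CYTOR, DANCR, OIP5-AS1, MIR22HG and TUG1, while TGACGTCA (1.85%) was found in none of the 7.
CYTOR promoter: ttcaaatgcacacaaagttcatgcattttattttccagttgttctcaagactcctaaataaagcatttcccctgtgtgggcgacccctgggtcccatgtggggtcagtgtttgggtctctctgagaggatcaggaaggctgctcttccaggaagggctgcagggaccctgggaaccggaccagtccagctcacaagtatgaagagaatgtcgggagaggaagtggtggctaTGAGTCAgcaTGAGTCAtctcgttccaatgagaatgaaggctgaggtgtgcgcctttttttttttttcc

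**Figure D3:**
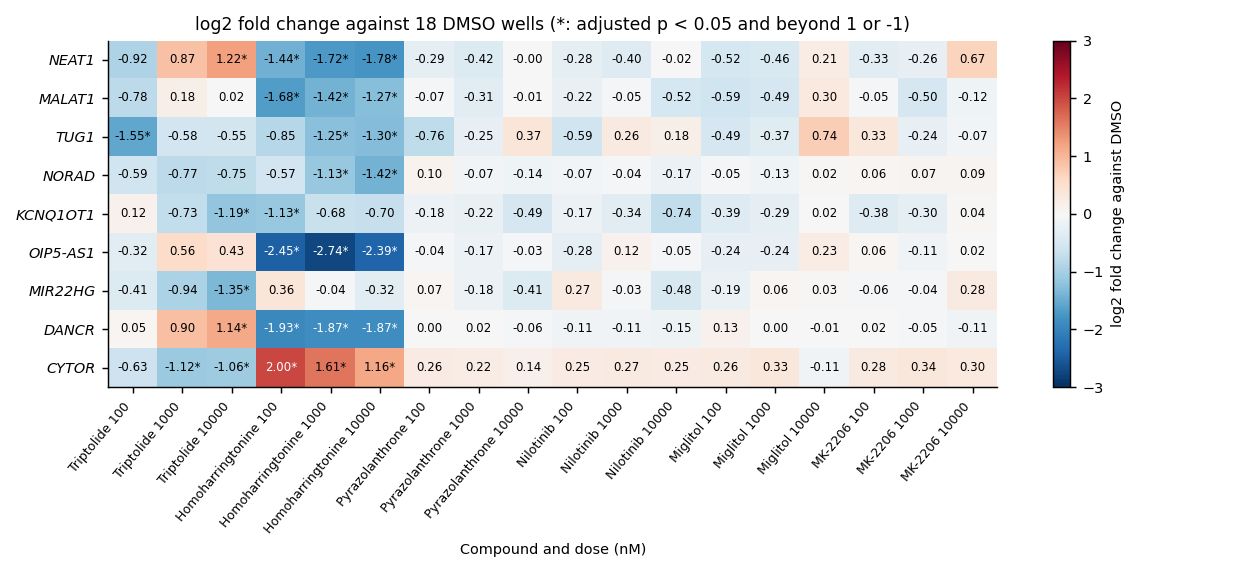
log2 fold change of each lncRNA (rows) against the 18 DMSO wells for the 6 compounds at 3 doses in nM (columns), in colour, with an asterisk where the adjusted p was under 0.05 and the change over 2-fold. Asterisks stand only in the triptolide and homoharringtonine columns, and CYTOR is the single row that is higher in the homoharringtonine columns with an asterisk; the triptolide colours for NEAT1, OIP5-AS1 and DANCR at the upper doses turn to the other sign under mitochondrial scaling.

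Compared directly at matched doses, the 2 compounds differed in 4 of 9 members at 100 nM (beside 47.9% of all genes), 5 at 1000 nM (58.6%) and 5 at 10000 nM (68.1%). Of these, 3, 4 and 4 were higher under triptolide, but under mitochondrial scaling 5, 5 and 6 members passed and 0 of them were higher. Few genes at all were higher on that scale, 428, 257 and 430 of 16468, 17704 and 17679 tested at rising doses. Most were lower past both thresholds, 11402, 13856 and 14084. At 10000 nM, DANCR was 8.52-fold, NEAT1 8.45-fold and OIP5-AS1 7.49-fold higher under triptolide than under homoharringtonine, with log2 differences of 3.09, 3.08 and 2.91 (edgeR adjusted p = 1.2e-10, 1.2e-10 and 4.4e-09), but under mitochondrial scaling these 3 differences shrank to 0.50, 0.50 and 0.33 (1.41-, 1.42- and 1.26-fold, edgeR adjusted p = 0.00015, 0.00024 and 0.016) and were no longer past 2-fold. CYTOR was 4.403-fold lower under triptolide (log2 difference -2.14, edgeR adjusted p = 4.9e-09) and past both thresholds on all 3 scales. MALAT1 was higher by 1.36 (edgeR adjusted p = 6.4e-05), TUG1 by 0.84 and NORAD by 0.75, but all 3 were lower, at -1.20, -1.75 and -1.83, under mitochondrial scaling. KCNQ1OT1 differed by -0.41 (edgeR adjusted p = 0.14) and MIR22HG by -0.95, past the adjusted p (edgeR 0.00014) but under 2-fold, and under mitochondrial scaling both were past 2-fold, at -2.97 and -3.54.

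At 100 nM the difference for KCNQ1OT1 was 1.31, but it was lost without replicate 1 (1.07, edgeR adjusted p = 0.053), without replicate 2 (1.23, edgeR adjusted p = 0.071) and with DESeq2 (1.20, adjusted p = 0.50). OIP5-AS1 and DANCR were higher under triptolide there by 2.20 and 2.06, but by 0.55 and 0.45 under mitochondrial scaling (edgeR adjusted p = 0.035 and 0.059), and the log2 difference of CYTOR was -2.56. At 1000 nM, OIP5-AS1 was higher by 3.28, DANCR by 2.77, NEAT1 by 2.56 and MALAT1 by 1.57, and the log2 difference of CYTOR was -2.73. Under mitochondrial scaling these became 0.94 for OIP5-AS1 (edgeR adjusted p = 0.022), 0.39 for DANCR (0.31), 0.22 for NEAT1 (0.53) and -0.73 for MALAT1 (0.054), of which OIP5-AS1 alone passed the adjusted p, and -5.16 for CYTOR.

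Trends with dose were fitted over the 9 wells of each compound, as log2 units per 10-fold dose. Under triptolide, NEAT1 rose by 0.96 (edgeR adjusted p = 0.0015) and KCNQ1OT1 fell by 0.67 (edgeR adjusted p = 0.039), beside 24.7% of all genes that passed. DANCR rose by 0.48 (edgeR adjusted p = 0.0031) on the TMM scale, but its slope was -0.04 under mitochondrial scaling, and without replicate 1 its edgeR adjusted p was 0.077. The KCNQ1OT1 slope lost its call without replicate 1, 2 or 3 (edgeR adjusted p = 0.35, 0.12 and 0.17).

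Under homoharringtonine, NORAD fell by 0.44 per 10-fold dose (edgeR adjusted p = 0.00053), CYTOR by 0.43 from its raised level (edgeR adjusted p = 0.0011) and MIR22HG by 0.35 (edgeR adjusted p = 0.0044), beside 44% of all genes. The call for MIR22HG was lost without replicate 2 (edgeR adjusted p = 0.072) and without replicate 3 (edgeR adjusted p = 0.0505). DANCR and OIP5-AS1, at 0.02 each (edgeR adjusted p = 0.78 and 0.91), showed no trend past the threshold, and their log2 fold changes at 100 nM were as large as at 10000 nM. The slopes of the 2 compounds differed past the threshold for NEAT1, NORAD, KCNQ1OT1 and DANCR, 4 of 9 members beside 40.4% of all genes, and under mitochondrial scaling for NEAT1 and KCNQ1OT1 alone.

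The other 4 compounds changed none of the members by the call rule. Over 12 combinations of compound and dose and 9 members, 0 of 108 tests passed an adjusted p of 0.05 in edgeR, 11 of 108 had an unadjusted p under 0.05, and log2 fold changes ran from -0.76 (TUG1, pyrazolanthrone 100 nM) to 0.74 (TUG1, miglitol 10000 nM). The share of all genes past both thresholds was 0.923%, 0% and 1.16% for pyrazolanthrone, 1.48%, 1.13% and 3.12% for nilotinib, 0% at each dose of miglitol, and 0.0054%, 0.286% and 0.711% for MK-2206, at rising doses. Of the 11 tests, 6 were for CYTOR and 2 for TUG1. Unadjusted edgeR p-values under 0.05 were common among all genes too. They ran from 944 of 18496 genes (miglitol 100 nM) to 5020 of 18616 (nilotinib 10000 nM). The smallest adjusted p, 0.099, was for KCNQ1OT1 at 10000 nM nilotinib with a log2 fold change of -0.74. With a replicate block, which kept only DMSO replicates 1 to 3, TUG1 passed both thresholds at 10000 nM miglitol. With DESeq2 none of the members did.

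RSEM also prints for each gene a length weighted by the share of its isoforms, which the choice of members did not use and which was tested for the 7 members with more than 1 listed transcript. Past an adjusted p of 0.05 over all genes with more than 1 transcript were NEAT1 under triptolide at 100 nM and 1000 nM and CYTOR at 5 of 6 doses of the 2 compounds, 7 tests in all. Of 84 tests with the other compounds, adjusted over the tests of the members only, none passed. The share of all genes past the threshold was 6.42%, 5.01% and 6.18% for triptolide and 1.77%, 3.48% and 7.68% for homoharringtonine at rising doses.

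NEAT1 had a weighted length of 2582 ± 458 bases in DMSO wells (SD, n = 18), 1636 ± 498 at 100 nM triptolide, 1662 ± 413 at 1000 nM and 1931 ± 167 at 10000 nM (n = 3 each). The exact two-sided permutation test gave p = 0.000752 at 100 nM, the smallest value that 3 wells against 18 allow, and p = 0.00226 at 1000 nM, or 0.0263 and 0.0450 adjusted. The DMSO well at 4274 bases and the triptolide 100 nM well at 1066 bases were the shallow libraries, with 49 and 2 expected counts. Without the shallow libraries the adjusted exact p for NEAT1 was 0.0662 at 100 nM, where 2 wells against 17 allow no p below 0.00585 and 0% of all genes passed, and 0.103 at 1000 nM, where again 0% passed. It was 0.0203 at 10000 nM triptolide beside 11.3% of all genes and 0.0356 at 100 nM homoharringtonine beside 5.8%. The 100 nM and 1000 nM calls for NEAT1 were therefore made only with the shallow libraries included, and those at the other 2 groups only without them. With 2 treated wells no gene passed at 100 nM or 1000 nM, so the lost calls cannot show what the shallow libraries added. Of the 2 remaining NEAT1 wells, 2 at 100 nM and 1 at 1000 nM were shorter than all 17 DMSO wells. MIR22HG also passed only without the shallow libraries, at 10000 nM triptolide (adjusted exact p = 0.0341 without and 0.214 with them). Without them its length was 964 ± 54.6 bases there (n = 3) against 1455 ± 237 in DMSO (n = 17). All 3 treated wells were below every DMSO well.

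CYTOR had a weighted length of 602 ± 7.48 bases in DMSO wells, from 591 to 616. It was 563, 562 and 563 bases under homoharringtonine at rising doses and 566, 602 and 629 under triptolide. At every dose of homoharringtonine and at 10000 nM triptolide the wells lay outside the DMSO range, with exact permutation p adjusted to 0.0425, 0.0263, 0.0171 and 0.0202. At 100 nM triptolide it was 0.0263 with and 0.0662 without the shallow libraries. The latter compares 2 wells with 17, which allow no exact p below 0.00585, and 0% of all genes passed. Without the shallow libraries the homoharringtonine values for CYTOR were 0.0226, 0.0159 and 0.0106, the last 2 beside 9.45% and 15.9% of all genes. The isoforms of CYTOR share sequence with MIR4435-2HG, so the division of reads between the genes enters these lengths too.

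**Figure D4:**
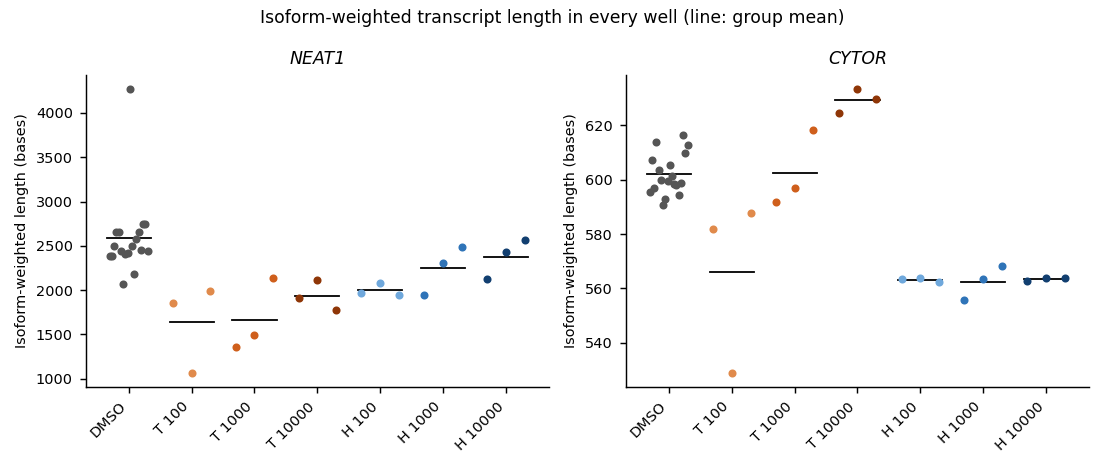
Isoform-weighted transcript length in bases of NEAT1 and CYTOR in every DMSO, triptolide (T) and homoharringtonine (H) well, with a line at each group mean. CYTOR lies at 591 to 616 bases in DMSO, at group means of 562 to 563 under homoharringtonine and at 629 under 10000 nM triptolide, and the highest DMSO well of NEAT1, at 4274 bases, is a shallow library.

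The spread of TUG1 among the DMSO wells moved with the GC slope of the library, a measure of how log2 levels across genes tilt with each 10 points of GC content. This relation was looked for after the spread had been seen. Over the 18 wells, TUG1 had Pearson's r = -0.967 and Spearman's rho = -0.961 (permutation p = 1e-05 for both, the smallest that 100000 permutations give, adjusted 8.64e-05 and 9.95e-05 over 19835 genes), and r = -0.945 without the 2 wells farthest from the median slope. Of all genes 39.2% passed the same threshold, and TUG1 lay at percentile 99.3 by size of r. MALAT1 had r = -0.645 (permutation p adjusted to 0.0123) and rho = -0.600 (adjusted 0.0223), with r = -0.511 without the 2 farthest wells. OIP5-AS1 had r = -0.622 (permutation p adjusted to 0.0166) but rho = -0.360 (adjusted 0.213), and the other 6 members did not pass.

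GC slopes ran from -0.416 to 0.338 in DMSO, from -0.086 to 0.415 in triptolide and from -0.630 to 0.098 in homoharringtonine wells, so the treated groups sat toward opposite ends. With the slope as a covariate, changes at 10000 nM homoharringtonine were -2.69 for TUG1, -2.30 for NEAT1 and -2.18 for MALAT1, larger than without it, and those of DANCR (-1.90) and NORAD (-1.52) moved little. All slopes at that dose, from -0.630 to -0.482, lay below the lowest DMSO slope, so these values extend the fit beyond the DMSO range. At 10000 nM triptolide, NEAT1 was 1.40 and DANCR 1.14 with the covariate, on the TMM scale. The slope was estimated from the same expression values, and its part in the results was otherwise not tested.

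**Figure D5:**
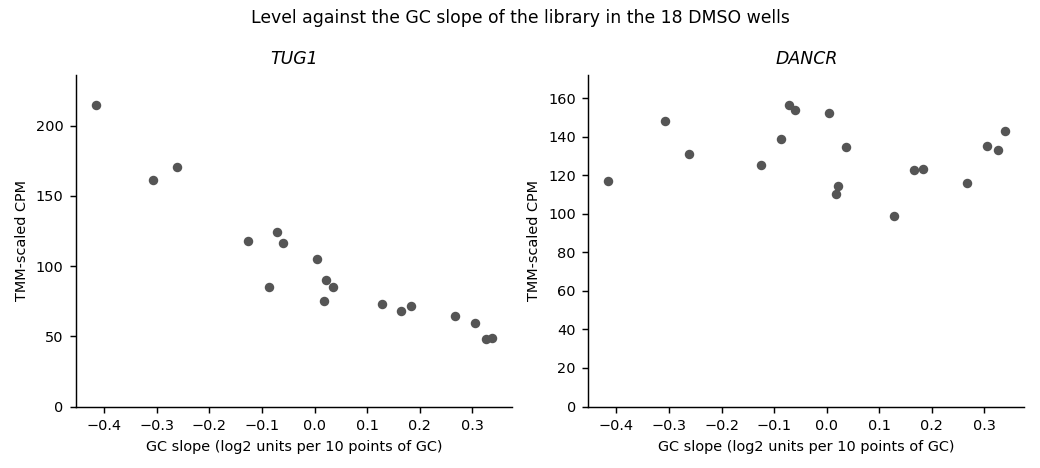
TMM-scaled CPM against the GC slope of the library, in log2 units for each 10 points of GC content, for TUG1 and DANCR in the 18 DMSO wells, 1 point per well. TUG1 falls along the slope with r = -0.967, whereas DANCR has r = -0.124 and did not pass (permutation p adjusted to 0.745).

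Genes that belong to the same structures and pathways were counted from lists. Of 13 paraspeckle proteins, the partners of NEAT1, 3 were higher and 1 lower past both thresholds at 10000 nM triptolide, namely DAZAP1 (1.38), PSPC1 (1.38), EWSR1 (1.16) and RBM14 (-1.61). At 10000 nM homoharringtonine 2 were higher and 1 lower, namely PSPC1 (1.69), the core component SFPQ (1.54) and DAZAP1 (-1.08). Their median log2 fold changes were 0.59 and 0.04, beside -0.17 and -0.05 for all genes, and the shares of all genes called are those given above (16.2% higher and 30.2% lower, and 23.6% and 23.4%). The triptolide values here and in the next 2 paragraphs are relative to the other mRNAs, and the shift of -2.76 that mitochondrial scaling gave the median gene was larger than every rise named.

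Of 10 binding partners and neighbours of the members, 0 were higher and 5 lower at 10000 nM triptolide, with the nuclear speckle proteins SON (-3.17) and SRRM2 (-1.13), PUM2 (-2.38), which binds NORAD, and MORC2 (-1.70) among them. At 10000 nM homoharringtonine 2 were higher and 1 lower: KCNQ1, whose gene holds KCNQ1OT1, at 1.87, SON at 1.30 and MORC2 at -1.54. Medians were -0.76 and 0.38, again beside -0.17 and -0.05 for all genes. These counts out of 10 stand beside 16.2% of all genes higher and 30.2% lower with triptolide, and 23.6% and 23.4% with homoharringtonine.

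Other noncoding genes gave a comparison for the members. Among all lncRNAs tested at 10000 nM, 13.6% were higher and 26.8% lower past both thresholds with triptolide, and 15.1% and 45.1% with homoharringtonine, so calls among a few such genes are common. Of 8 other nuclear lncRNAs 6 were tested, and MIAT (1.99) was the single call at 10000 nM triptolide, while HOTAIR (-3.65), MIAT (-1.99) and LINC-PINT (-1.27) were lower at 10000 nM homoharringtonine. Of 6 other spliced lncRNAs, H19 (1.57), CRNDE (1.41) and FGD5-AS1 (1.15) were higher and EPB41L4A-AS1 (-2.03) lower with triptolide, and EPB41L4A-AS1 (1.66) was higher and FGD5-AS1 (-2.59), PAXIP1-AS2 (-1.32) and TP53TG1 (-1.24) lower with homoharringtonine. Of 9 microRNA host genes 5 were tested: MIR193BHG (2.35) and DLEU2 (1.49) were higher and MIR100HG (-1.92) lower with triptolide, and with homoharringtonine MIR193BHG (-3.69), MIR210HG (-3.34), MIR29B2CHG (-2.87) and MIR100HG (-1.77) were lower, unlike the host MIR22HG, which passed at no dose. The difference between MIR22HG and these hosts was not tested.

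Across the 19 group means of log2(CPM + 1), the members differed in how alike they were. Of the 36 pairs of members, 5 had an r above 0.8 or below -0.8 and 9 lay between -0.3 and 0.3, such as KCNQ1OT1 and CYTOR at r = -0.061. Among the strongest pairs, OIP5-AS1 and DANCR had r = 0.948, NEAT1 and DANCR r = 0.873, and DANCR and CYTOR r = -0.922. Among 9681 genes with a mean of at least 10 CPM, DANCR was most like NRSN2 and PDPN (both r = 0.988), OIP5-AS1 like BRD3OS (r = 0.980) and TCF19 (r = 0.979), and NEAT1 like FBXL16 (r = 0.950) and HEG1 (r = 0.946). NORAD was most like JRK (r = 0.985) and HMGN4 (r = 0.976), CYTOR like DNAJB5 (r = 0.983) and RASSF1 (r = 0.980), and TUG1 like VDAC3 (r = 0.976) and ZNF252P (r = 0.946). MALAT1 was most like CCDC34 (r = 0.971) and RASSF2 (r = 0.951), MIR22HG like GATD1 (r = 0.938) and MRPL27 (r = 0.935), and KCNQ1OT1, with few reads, like NOVA2 (r = 0.866) and ENGASE (r = 0.855). These values are a description over group means from the same libraries, which share depth and GC slope.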

How the data were processed

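Bulk RNA-seq of 72 wells of U2OS cells was used, with groups, doses and replicate numbers from the labels. The authors extracted RNA with RNeasy columns, prepared TruSeq stranded poly(A) libraries, used an Illumina HiSeq and ran RSEM. The submitters' notes name GRCh38, HTSeq, RSEM and DESeq2, with roles and versions not given in the sources used here. The deposited expected counts estimate how many reads each gene gave and are not normalized. The deposited TPM values are scaled by RSEM for gene length to a fixed sum, and the deposited FPKM values for gene length and mapped reads. The files also give isoform-weighted lengths. Symbols and positions came from GENCODE release 44, which held 56104 of 60371 identifiers.

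Expected counts, from 70767 to 68296309 per library, were rounded and analysed with edgeR 4.0.16 under R 4.3.3 (TMM, filterByExpr with a smallest count of 10, quasi-likelihood test, Benjamini-Hochberg over all genes) against the 18 DMSO wells, between the compounds, and as trends on log10 dose. A call needed an adjusted p under 0.05 together with a change past 1 or -1 on the log2 scale (for trends the adjusted p alone). "Rose" and "fell" refer to the adjusted p. Alternatives were DESeq2 1.42.0, library sizes alone, 13 mitochondrially encoded mRNAs as the scale, other filters, a fit over all wells, a GC slope covariate (GC known for 98.6% of 20432 genes), a replicate block, leaving out libraries under 10000000 counts, and leaving out replicates. In comparisons with DMSO the replicate block kept only DMSO replicates 1 to 3. Lengths were tested by exact permutation in Python 3.11.15 with scipy 1.17.1. Their p-values are given adjusted over all genes with more than 1 transcript, a choice made after seeing the data. Scripts were tested on simulated data. Among 207 pairs of wells of 1 group, no pair agreed within sampling noise (smallest chi-square per degree of freedom 1.35).

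The members and the comparison lists were chosen with earlier results of these data known. Named are the 9 members, the 2 genes most like each by Pearson's r over group means (at least 10 CPM), and at most 4 genes per list and compound, those with the largest changes at 10000 nM. The NUSAP1, OIP5, WDR81, ERVMER34-1 and MIR4435-2HG loci are named for their overlap or likeness, and all tested lncRNAs are given as counts. A gene of the binding partner list is not reported here.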

Additional observations from a re-analysis of the deposited data

Results flagged for a closer look

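The dose trends of triptolide and homoharringtonine differed for 4 members by a test of the difference itself, beside 40.4% of all 19185 genes tested. The triptolide slope minus the homoharringtonine slope, in log2 units per 10-fold dose, was 1.19 for NEAT1 (edgeR adjusted p = 6.6e-05), 0.51 for DANCR (edgeR adjusted p = 0.0017), 0.37 for NORAD (edgeR adjusted p = 0.018) and -0.84 for KCNQ1OT1 (edgeR adjusted p = 0.0044). Under mitochondrial scaling the difference for DANCR was 0.012 (edgeR adjusted p = 0.98), that for NEAT1 0.74 (edgeR adjusted p = 0.0025) and that for KCNQ1OT1 -1.28 (edgeR adjusted p = 0.00050). NEAT1 rose with triptolide dose and had a slope of -0.18 with homoharringtonine that did not pass (edgeR adjusted p = 0.074). NORAD fell with homoharringtonine dose and had a slope of -0.12 with triptolide (edgeR adjusted p = 0.32), and under mitochondrial scaling its difference was -0.10. The NORAD difference did not pass without replicate 1, 2 or 3 (0.34, 0.31 and 0.48, edgeR adjusted p = 0.16, 0.092 and 0.055), and the KCNQ1OT1 difference did not pass without replicate 2 or 3 (-0.79 and -0.84, edgeR adjusted p = 0.069 and 0.071). The triptolide slopes include the shallowest library, at 100 nM.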

How the results depend on the processing

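Counts of members past the call rule that moved by over 1.5 times were these. At 100 nM triptolide, where 1 member passed, 3 did with library sizes alone, 9 with mitochondrial scaling, 2 with no filter, and 0 with the replicate block or the GC covariate. At 1000 nM triptolide, also 1, it was 5 with library sizes alone, 9 with mitochondrial scaling, 0 without libraries under 10000000 counts, 3 with the replicate block, 2 with the GC covariate, 2 with DESeq2 and 0 to 3 when a replicate was left out. At 10000 nM triptolide, 5 became 9 with mitochondrial scaling and 3 with at least 10 counts in every well, which leaves 7 of the members to test. Beside the 9 members, mitochondrial scaling called 13780, 17391 and 18041 of all genes lower at rising doses of triptolide. It called 140, 7 and 8 higher, among 18503, 18589 and 18536 genes tested. From 0, nilotinib went to 3 at 10000 nM with mitochondrial scaling and 0 to 1 at 100 nM when a replicate was left out, and miglitol at 10000 nM to 1 with the replicate block. At 10000 nM nilotinib mitochondrial scaling called 171 of all genes higher and 3186 lower. The triptolide trends went from 3 to 5 with mitochondrial scaling and 1 to 3 without a replicate, and the differences of trends from 4 to 2 and 2 to 3. The 7 length tests became 0 to 0 when a replicate was left out, since 2 wells against 18 cannot give a p below 0.00526. Smaller moves included, at 10000 nM triptolide, 4 with DESeq2 (without CYTOR) and, with library sizes alone, 5 that were all lower; at 100 nM homoharringtonine 7 in place of 6 with library sizes alone and with the GC covariate, and 5 with at least 10 counts in every well; at 1000 nM 6 in place of 7 with the replicate block; and at 10000 nM 6 in place of 7 with mitochondrial scaling and 5 with the replicate block.

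Directions turned under mitochondrial scaling, which by its construction lowers the triptolide libraries. At 100, 1000 and 10000 nM triptolide, DANCR became -1.57, -1.57 and -1.65. KCNQ1OT1 became -1.53 at 100 nM. At 1000 and 10000 nM, NEAT1 became -1.55 and -1.50, MALAT1 -2.23 and -2.68, and OIP5-AS1 -1.89 and -2.32. Between the compounds, at 100 nM NEAT1 became -1.06, MALAT1 -0.69, NORAD -1.57 and KCNQ1OT1 -0.33; at 1000 nM MALAT1 became -0.73, TUG1 -1.65 and NORAD -2.04; and at 10000 nM MALAT1 became -1.20, TUG1 -1.75 and NORAD -1.83. Triptolide slopes became -0.15 for MALAT1, -0.062 for TUG1, -0.18 for OIP5-AS1 and -0.036 for DANCR, homoharringtonine slopes -0.063 for OIP5-AS1 and -0.053 for DANCR, and differences of slopes -0.26 for MALAT1, -0.10 for NORAD, -0.11 for OIP5-AS1 and -0.24 for CYTOR.

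With library sizes alone, KCNQ1OT1 (-0.24) and DANCR (-0.25) turned at 100 nM triptolide, MALAT1 at 1000 nM (-0.30) and 10000 nM (-0.53), OIP5-AS1 at 10000 nM (-0.11), NORAD between the compounds at 100 nM (-0.086) and the MALAT1 difference of slopes (-0.024). With no filter DANCR was -0.031 at 100 nM and MALAT1 -0.048 at 10000 nM triptolide, with at least 10 counts in every well MALAT1 was -0.011 there, with the GC covariate MIR22HG was 0.032 at 1000 nM homoharringtonine, and with DESeq2 NORAD was -0.079 between the compounds at 100 nM; for these the cause was not tested, and the filter of 10 counts gave no value at 100 nM triptolide, where no member passed it. Leaving out a replicate, KCNQ1OT1 ranged from -0.24 to 0.36 at 100 nM and MALAT1 from -0.064 to 0.30 at 1000 nM triptolide, MIR22HG from -0.12 to 0.041 at 1000 nM homoharringtonine, NORAD from -0.22 to 0.10 between the compounds at 100 nM and KCNQ1OT1 from -0.037 to 0.019 at 1000 nM, the homoharringtonine slopes of MALAT1 from -0.0024 to 0.28 and OIP5-AS1 from -0.11 to 0.093, and the length of CYTOR at 1000 nM triptolide from -7.56 to 5.58 bases.

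The replicate numbers share only a number: deviations of same-numbered wells had a mean correlation of -0.068 over 52 pairs, those of differently numbered wells 0.021 over 104. With the replicate block, which against DMSO kept only DMSO replicates 1 to 3, DANCR was -0.20 at 100 nM triptolide and TUG1 0.050 at 10000 nM triptolide. With the block NORAD was -0.044 between the compounds at 100 nM. Depth limits KCNQ1OT1 and MIR22HG most, and every triptolide 100 nM value rests in effect on 2 libraries.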
